A study of Mus musculus with 16 samples.

Results

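A set of 9 genes of adrenergic signalling and of its desensitization was described in cultured mouse brown adipocytes. They were the adrenoceptors *Adrb1*, *Adrb3*, *Adra1a* and *Adra2a*, the receptor kinases *Grk2* and *Grk5*, the β-arrestins *Arrb1* and *Arrb2*, and *Gnas*, which encodes the stimulatory G protein α subunit. These were 9 of the 54347 listed genes, taken by symbol for their place in the pathway. All 9 were found in the table.

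The cells were of the wt1-SAM line, immortalized brown adipocytes that stably carry a CRISPR activation system with a catalytically dead Cas9. All 4 groups shared this line, so no group lacked the activation machinery. Cells were transfected on day 4 with 250 ng of plasmid, which was either the empty vector (empty) or the pSgRNA-MS2-2+7 pair with guides against the long noncoding RNA gene *Gm15551* (sgRNA). They were harvested on day 7, either as control (ctrl) or after 24 h with 1 µM isoproterenol (iso), an agonist of the β-adrenoceptors. Replicate numbers 3, 4, 5 and 6 occurred once in each combination, which gave 16 polyadenylated RNA libraries in 4 groups of 4. Because a single cell line was used, the spread between libraries is not that between animals.

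Noradrenaline and isoproterenol act on G protein-coupled receptors. The β-adrenoceptors couple through Gsα to adenylyl cyclase and raise cyclic AMP, which drives lipolysis and thermogenesis in brown fat, whereas α1 receptors couple to Gq and α2 receptors to the inhibitory Gi proteins. Upon sustained agonist exposure, receptor kinases phosphorylate the receptors, and β-arrestins bind to them, uncouple the G protein and lead the receptor into clathrin-coated pits. The β3 receptor is known as the main β-adrenoceptor of mouse brown adipocytes, and its short tail lacks most of the phosphorylation sites used by this route.

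The libraries held 9053521 to 16546187 estimated counts. A single ribosomal RNA gene took 11.7% to 51.8% of them, with group means of 29.0% ± 12.8 in empty ctrl, 36.8% ± 12.8 in empty iso, 19.1% ± 1.11 in sgRNA ctrl and 21.1% ± 7.18 in sgRNA iso (SD, n = 4). The targeted gene *Gm15551* had 0 to 18 counts in empty libraries and 13 to 56 in sgRNA libraries and was higher in 8 of 8 pairs, by 2.37 in log2 units with an adjusted p of 0.0989 in edgeR, which did not pass, and by 2.41 with an adjusted p of 5.50e-04 with the replicate number as a block. Of 9 tested genes known to respond to β-adrenergic stimulation, 6 rose with isoproterenol, against 2.06% of all 13150 genes tested. They were led by *Ucp1*, the uncoupling protein of brown fat, at an effect of 4.03 in log2 units (SE 0.37) and an adjusted p of 7.36e-06 in edgeR. Its counts were low without isoproterenol, at 0 to 12 in empty ctrl and 3 to 14 in sgRNA ctrl libraries. *Dio2*, of the same list, had at most 1 count in any library and was not tested. Levels below are CPM, counts relative to the TMM-scaled size of the library. Passing means an adjusted p under 0.05 in edgeR's quasi-likelihood test over 13150 genes.

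On GRCm38, *Adrb1* (ENSMUSG00000035283) lies at chr19:56722199-56733113 and *Adra2a* (ENSMUSG00000033717) at chr19:54044151-54048982, both on the plus strand. *Adra1a* (ENSMUSG00000045875) lies at chr14:66635251-66771168 on the plus strand. *Adrb3* (ENSMUSG00000031489) lies at chr8:27225776-27250616 on the minus strand, where 1 antisense gene overlaps it. Among the components that act after the receptor, *Grk2* (ENSMUSG00000024858) lies at chr19:4286001-4306222 on the minus strand and *Grk5* (ENSMUSG00000003228) at chr19:60889749-61095968 on the plus strand. *Arrb1* (ENSMUSG00000018909) lies at chr7:99535466-99606771, *Arrb2* (ENSMUSG00000060216) at chr11:70432635-70440828 and *Gnas* (ENSMUSG00000027523) at chr2:174284320-174346744, all on the plus strand. *Gnas* is an imprinted locus with 24 annotated transcripts from 16 start positions, and its count pools all of them. Antisense genes also overlap *Grk5*, *Arrb1* and *Gnas*. Overlap was taken over whole gene spans, introns included, and shared exons were not looked for. The use of read strand was not stated, so whether reads of these partners entered the counts is not known.

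RefSeq promoter windows of 300 bases (GRCm38.p6, 250 bases before to 50 after the start) were at hand for 4 of the 9 genes. Both orientations of the core motif of the cyclic AMP response element, TGACG or CGTCA, were searched, since cyclic AMP is the messenger raised by isoproterenol. The core motif was in 20.8% of all 32817 windows and the palindrome TGACGTCA, which contains both, in 1.79%. The windows of *Adrb1*, *Adra2a* and the Gsα start of *Gnas* each held 1 core motif and that of *Grk5* held 0, whereas the palindrome was in 0 of the members' windows. Shown are the *Adrb1* window at chr19:56721867-56722166 and the Gsα window of *Gnas* at chr2:174329756-174330055, both on the plus strand, as a receptor and the G protein it couples to. Capitals mark the core motif. A match is a description of letters and not a binding site.
Adrb1: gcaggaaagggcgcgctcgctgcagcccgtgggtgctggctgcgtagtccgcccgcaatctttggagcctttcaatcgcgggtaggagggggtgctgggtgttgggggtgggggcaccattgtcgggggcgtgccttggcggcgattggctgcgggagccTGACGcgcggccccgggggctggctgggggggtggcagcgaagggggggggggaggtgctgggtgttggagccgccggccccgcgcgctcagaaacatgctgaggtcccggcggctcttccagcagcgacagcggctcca
Gnas: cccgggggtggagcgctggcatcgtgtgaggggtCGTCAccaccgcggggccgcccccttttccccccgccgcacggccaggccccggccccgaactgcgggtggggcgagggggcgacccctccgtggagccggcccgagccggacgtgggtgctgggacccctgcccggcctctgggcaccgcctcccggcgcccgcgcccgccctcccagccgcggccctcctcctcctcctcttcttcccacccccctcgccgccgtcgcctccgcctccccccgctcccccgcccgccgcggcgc

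The order of levels per length in empty ctrl cells ran from *Gnas* to the α receptors. On the scale of CPM per kb of merged exon length, *Gnas* was at 39.3 ± 7.41, *Grk2* at 10.0 ± 0.306, *Arrb1* at 3.62 ± 0.884, *Arrb2* at 3.09 ± 0.366 and *Grk5* at 1.46 ± 0.266 (SD, n = 4). The receptors followed with 0.102 ± 0.0546 for *Adrb1*, 0.0478 ± 0.0323 for *Adrb3*, 0.0186 ± 0.00682 for *Adra2a* and 0.00744 ± 0.0149 for *Adra1a* (SD, n = 4). The ranges of *Arrb1* and *Arrb2* overlapped, although *Arrb1* was the higher in each of the 4 libraries (3.44 against 3.38 in replicate 3, 4.82 against 3.21 in replicate 6). Each neighbouring pair among the 4 receptors overlapped as well, so neighbouring receptors did not differ beyond their spread. The rank order was the same when the longest coding transcript was taken as the length.

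**Figure D1:**
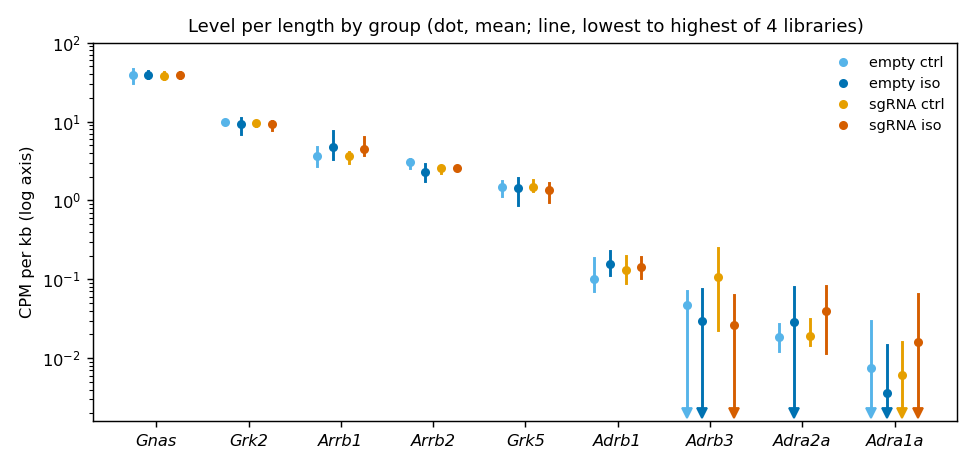
Level per length (CPM per kb of merged exon length, log axis) of the 9 genes in the 4 groups; dots are means, lines run from the lowest to the highest of 4 libraries and arrowheads mark a lowest library at 0. The kinases, arrestins and *Gnas* lie at or above 0.884 CPM per kb in every library, whereas the 4 receptors lie at or below 0.248.

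The receptors known for brown fat were close to the limit of detection in these cells. *Adrb1*, the β1 receptor, had 4, 4, 2 and 6 counts in replicates 3, 4, 5 and 6 of empty ctrl, 3, 8, 6 and 6 in empty iso, 5, 4, 9 and 6 in sgRNA ctrl and 5, 9, 8 and 5 in sgRNA iso. *Adrb3*, the β3 receptor, had 4, 3, 0 and 2 counts in empty ctrl, 0, 1, 2 and 1 in empty iso, 2, 1, 5 and 11 in sgRNA ctrl and 1, 1, 0 and 3 in sgRNA iso. For each of these genes the 4 groups overlapped, and the highest *Adrb3* library was replicate 6 of sgRNA ctrl. A count of 0 allows up to 3 counts, which corresponds to 0.166 to 0.390 CPM depending on the library, and *Adrb3* exceeded 3 counts in 3 of 16 libraries.

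The α receptors of the set had lower mean CPM than both β receptors in the ctrl groups, but not throughout the iso groups. In empty iso *Adra2a* averaged 0.137 CPM, against 0.0985 for *Adrb3*. In sgRNA iso *Adra2a* averaged 0.194 and *Adra1a* 0.140 CPM, against 0.0893 for *Adrb3*. *Adra2a*, whose product inhibits adenylyl cyclase, had 1 count in each empty ctrl library, 0, 0, 3 and 2 in empty iso, 1, 1, 2 and 1 in sgRNA ctrl and 2, 1, 5 and 2 in sgRNA iso. *Adra1a*, which couples to Gq, was at 0 in 11 of 16 libraries and reached 7 counts in replicate 5 of sgRNA iso. Presence and absence of these transcripts could not be separated at this depth.

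**Figure D2:**
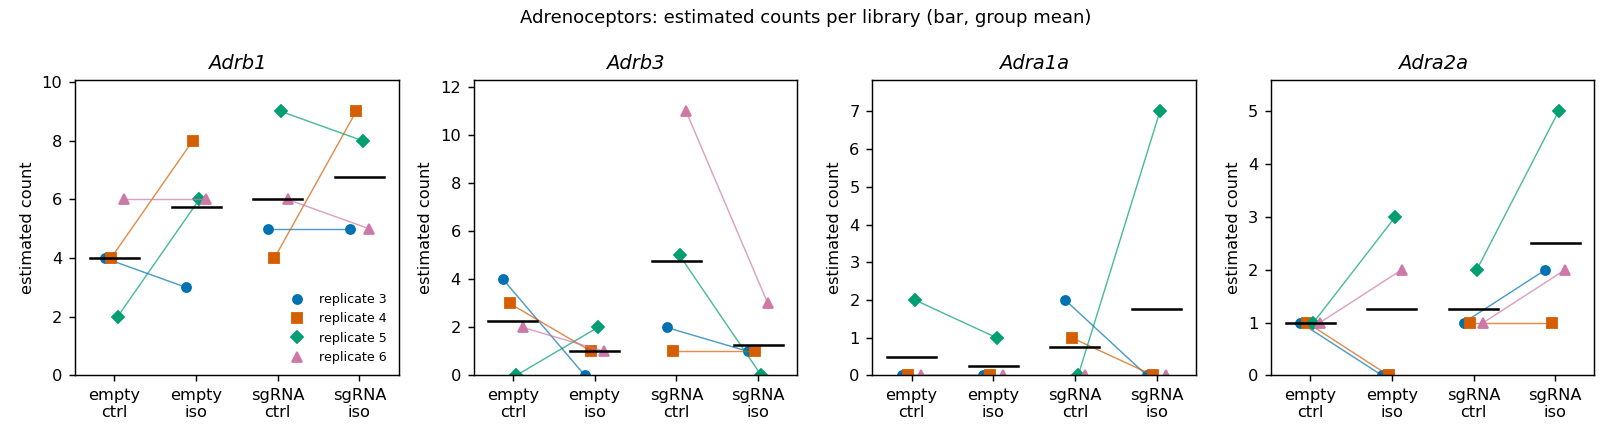
Estimated counts of *Adrb1*, *Adrb3*, *Adra1a* and *Adra2a* in each library by group; lines join the ctrl and iso libraries of the same plasmid and replicate number and bars are group means. No receptor exceeds 11 counts in any library, and the groups overlap for each receptor.

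All 4 receptors of the set failed the filter on low counts and had no test in the main fit. In a fit of the 34821 genes with any count, the averaged isoproterenol effect on the log2 scale was 0.34 (SE 0.41) for *Adrb1*, −1.39 (SE 0.69) for *Adrb3* and 0.69 (SE 0.73) for *Adra2a*, with edgeR adjusted p values of 0.991, 0.557 and 0.931. For *Adrb3* the 95% interval ran from −2.78 to 0.00061. *Adra1a* was at 0.18 (SE 1.96), which carries no direction.

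The 2 β receptors of the set were also compared with each other, as the log2 ratio of *Adrb3* to *Adrb1* counts with 0.5 added to each. No scaling between libraries was applied, although at such low counts the added 0.5 leaves the ratio dependent on library size. Summed over 8 libraries each, *Adrb3* had 28 counts in ctrl and 9 in iso libraries, and *Adrb1* had 40 and 50. The ratio was lower with isoproterenol in 7 of 8 pairs, the exception being empty replicate 5. Its mean change was −1.42 ± 1.34 on the log2 scale (SD, n = 8 pairs), with p = 0.0312 in an exact two-sided sign-flip test for which 0.00781 is the smallest possible p. With 2 added to each count in place of 0.5 the mean change was −0.92 (exact p = 0.0156), so its size depended on the constant added to these low counts. The test takes the pairs as independent although both plasmids share replicate numbers. Without replicate 3, 4 or 6 the mean change was −1.30, −1.35 or −1.52 and the exact p 0.0938, 0.125 or 0.0938, where 6 pairs allow no p below 0.0312. The comparison had been planned only for the case that both genes had counts in nearly all libraries. Of the 16 *Adrb3* values, 3 were 0, so that condition was not clearly met.

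The components that act after the receptor were well covered, with at least 39 counts in each library. Of the 5 genes tested, 0 passed for the averaged isoproterenol effect in edgeR, 1 (*Arrb1*) had an unadjusted p under 0.05 and 0 passed in DESeq2. Over all genes, 590 of 13150 passed, or 4.49%, while 2330 had an unadjusted p under 0.05 and 973 passed in DESeq2. The replicate numbers paired the libraries, and once that number entered the fit as a block 1 of 5 passed, *Arrb1*, beside 2799 genes or 21.3% overall. The median log2 change of the 5 was −0.075, against 0.0047 over all genes tested.

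**Figure D3:**
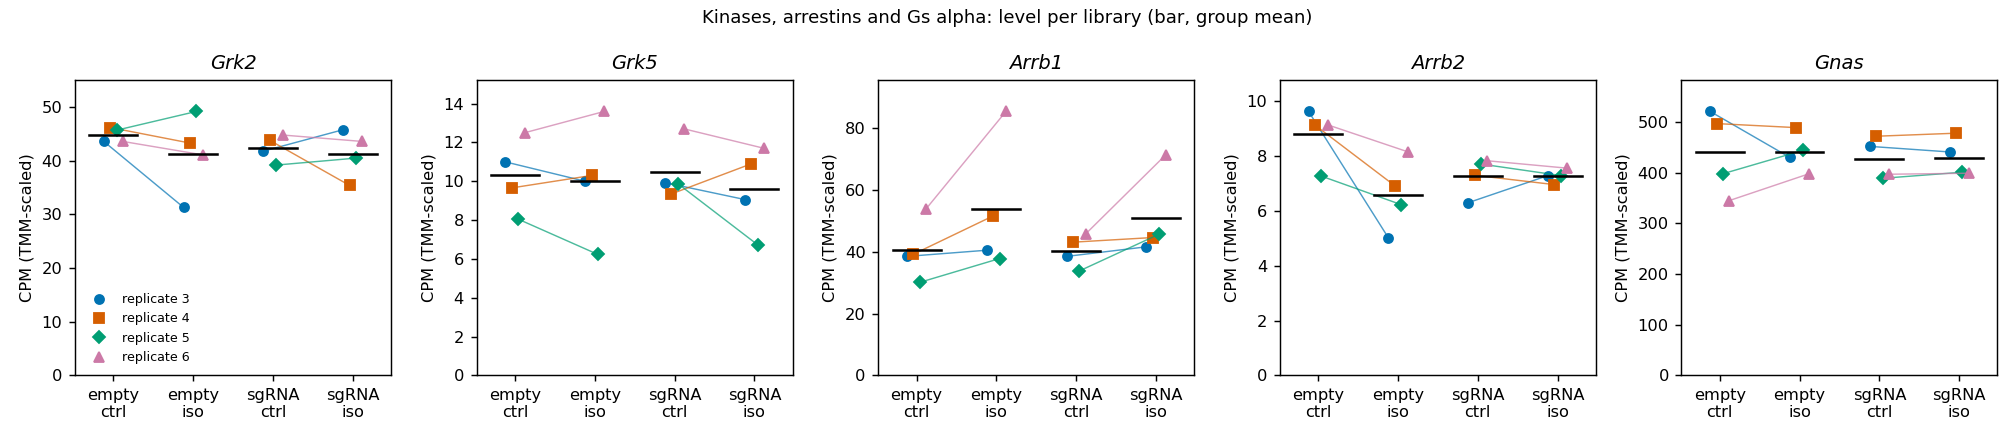
Level (TMM-scaled CPM) of *Grk2*, *Grk5*, *Arrb1*, *Arrb2* and *Gnas* in each library by group; lines join ctrl and iso libraries of the same plasmid and replicate number and bars are group means. *Arrb1* is higher at the iso end of each of the 8 lines, most in replicate 6, and *Arrb2* is lower at the iso end of all 4 lines of empty cells.

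*Grk2* encodes the kinase that is recruited to active receptors by Gβγ. Its levels in replicates 3, 4, 5 and 6 were 43.6, 46.2, 45.7 and 43.6 CPM in empty ctrl, 31.3, 43.3, 49.2 and 41.1 in empty iso, 41.8, 43.8, 39.2 and 44.8 in sgRNA ctrl and 45.8, 35.4, 40.5 and 43.6 in sgRNA iso. The groups overlapped, and the ctrl libraries lay closer together than the iso libraries. The averaged isoproterenol effect was −0.077 (SE 0.083; 95% interval −0.25 to 0.098; adjusted p = 0.703, edgeR).

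*Grk5* encodes a kinase that binds the membrane without Gβγ. Its levels were 11.0, 9.66, 8.05 and 12.5 CPM in empty ctrl, 10.0, 10.3, 6.23 and 13.6 in empty iso, 9.93, 9.35, 9.88 and 12.7 in sgRNA ctrl and 9.06, 10.9, 6.73 and 11.7 in sgRNA iso. Replicate 6 was highest in each group, and the groups overlapped. The averaged isoproterenol effect was −0.075 (SE 0.15; 95% interval −0.40 to 0.25; adjusted p = 0.863, edgeR).

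*Arrb1* encodes β-arrestin 1 and showed the largest isoproterenol effect of the 5 genes. Empty cells had 38.5, 39.2, 30.1 and 53.9 CPM in ctrl and 40.5, 51.6, 37.8 and 85.4 CPM in iso libraries of replicates 3, 4, 5 and 6. sgRNA cells had 38.5, 43.1, 33.8 and 45.8 CPM in ctrl and 41.6, 44.6, 45.7 and 71.3 CPM in iso libraries. *Arrb1* was higher with isoproterenol in 8 of 8 pairs, although the ctrl and iso groups overlapped because replicates differed in their base level. The pairwise log2 differences ran from 0.049 in sgRNA replicate 4 to 0.66 in empty replicate 6.

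The averaged log2 fold change of *Arrb1* was 0.38 (SE 0.17; 95% interval 0.0090 to 0.74; adjusted p = 0.269, edgeR) and did not pass. With the replicate block it was 0.34 (SE 0.081; 95% interval 0.17 to 0.52; adjusted p = 0.00699, edgeR) and passed. Without replicate 6 the blocked value was 0.23 with an adjusted p of 0.0632, so this call rested on replicate 6. Within plasmids the unblocked log2 fold changes were 0.42 (SE 0.25) in empty and 0.33 (SE 0.24) in sgRNA cells, with adjusted p values of 0.630 and 0.831 in edgeR. The interaction of isoproterenol and sgRNA was −0.082 (SE 0.35; adjusted p = 1.00, edgeR).

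*Arrb2* encodes β-arrestin 2 and did not pass for isoproterenol in any fit. In empty cells it had 9.63, 9.13, 7.27 and 9.14 CPM in ctrl and 5.02, 6.92, 6.23 and 8.16 CPM in iso libraries, lower in 4 of 4 pairs, with overlapping groups. sgRNA cells had 6.30, 7.30, 7.71 and 7.83 CPM in ctrl and 7.29, 6.96, 7.29 and 7.56 CPM in iso libraries, lower in 3 of 4 pairs by at most 0.081 on the log2 scale and higher by 0.21 in replicate 3.

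The averaged log2 fold change of *Arrb2* was −0.21 (SE 0.10; 95% interval −0.43 to 0.014; adjusted p = 0.319, edgeR). With the block it was −0.21 (SE 0.093; 95% interval −0.41 to −0.016; unadjusted p = 0.0359, adjusted p = 0.118, edgeR), lower in 7 of 8 pairs, and did not pass. It was −0.41 (SE 0.15; 95% interval −0.73 to −0.098; unadjusted p = 0.0134, adjusted p = 0.298, edgeR) in empty cells and −0.0020 (SE 0.15; 95% interval −0.31 to 0.31; adjusted p = 1.00, edgeR) in sgRNA cells. The difference between the plasmids, tested as the interaction, was 0.41 (SE 0.21; 95% interval −0.032 to 0.85; unadjusted p = 0.0666, adjusted p = 1.00, edgeR) and did not pass. With the block it was 0.42 (95% interval 0.026 to 0.82; unadjusted p = 0.0382, adjusted p = 1.00, edgeR). The plasmids differed most in replicate 3, with a pairwise log2 change of −0.94 in empty and 0.21 in sgRNA cells. In replicates 4, 5 and 6 it was −0.40, −0.22 and −0.16 in empty cells, against −0.069, −0.081 and −0.051 in sgRNA cells. Over all alternatives the interaction ran from 0.19 to 0.53, and the change in empty cells from −0.53 to −0.26. Of the 13150 genes, 120 or 0.913% passed for isoproterenol in empty cells and 95 or 0.722% in sgRNA cells, and 9.57% and 8.40% with the block; 0 of the 5 members passed in any of these. For the interaction 0 genes (0%) passed in edgeR or in DESeq2, with 52 at an unadjusted p under 0.05.

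**Figure D4:**
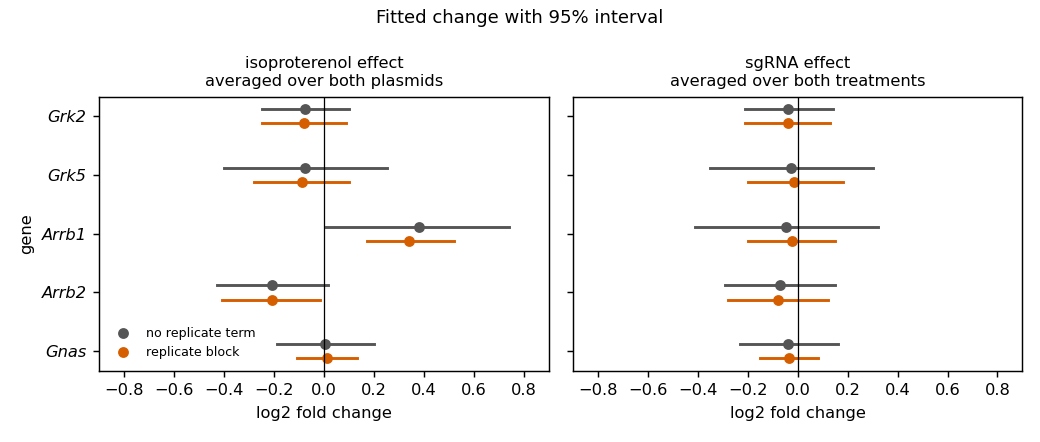
Log2 fold change with its 95% interval for the 5 tested genes, for isoproterenol (left) and sgRNA (right), without a replicate term (grey) and with the replicate block (orange). The *Arrb1* interval for isoproterenol lies above 0 in both fits, from 0.17 to 0.52 with the block, that of *Arrb2* lies below 0 only with the block, from −0.41 to −0.016, and all sgRNA intervals include 0.

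The ratio of *Arrb1* to *Arrb2* counts, looked at after the values of both had been seen, was compared without a test. It was 3.99, 4.29, 4.14 and 5.90 in empty ctrl and 8.05, 7.46, 6.06 and 10.5 in empty iso libraries, so that these groups did not overlap. In sgRNA cells it was 6.11, 5.91, 4.38 and 5.85 in ctrl and 5.71, 6.41, 6.27 and 9.43 in iso libraries, higher in 3 of 4 pairs. The mean log2 change over pairs was 0.80 in empty and 0.31 in sgRNA cells. The paralogs share sequence, and estimated counts divide reads that fit both.

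**Figure D5:**
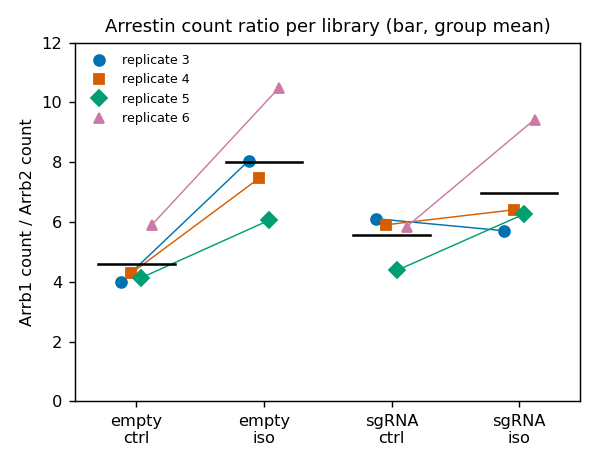
Ratio of *Arrb1* to *Arrb2* estimated counts in each library by group; lines join ctrl and iso libraries of the same plasmid and replicate number and bars are group means. The 4 empty iso libraries (6.06 to 10.5) lie above the 4 empty ctrl libraries (3.99 to 5.90), whereas the sgRNA groups overlap.

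*Gnas*, the Gsα locus, was the most abundant of the set. Its levels were 521, 497, 398 and 345 CPM in empty ctrl, 430.1, 489, 444 and 398 in empty iso, 452, 472, 389 and 397 in sgRNA ctrl and 441, 478, 401 and 399 in sgRNA iso. The groups overlapped, and replicates 3 and 4 were above replicates 5 and 6 in 3 of the groups. The averaged isoproterenol effect was 0.0036 (SE 0.092; 95% interval −0.19 to 0.20; adjusted p = 0.991, edgeR), the narrowest interval after that of *Grk2*.

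The guides against *Gm15551* changed none of the tested genes beyond the spread between libraries. Averaged over treatments, the log2 fold changes lay between −0.072 for *Arrb2* and −0.027 for *Grk5*, with adjusted p values of 1.00 in edgeR and 95% intervals reaching at most from −0.41 to 0.32, those of *Arrb1*. Of the 5 genes, 0 had an unadjusted p under 0.05 and 0 passed in DESeq2 or with the block. Over all 13150 genes 0 (0%) passed, against 437 at an unadjusted p under 0.05, 13 in DESeq2 and 77 or 0.586% with the block. In ctrl and in iso cells alone 0 genes (0%) passed as well, with 194 and 196 at an unadjusted p under 0.05 and 3 and 5 in DESeq2, whereas 5 (0.0380%) and 18 (0.137%) passed with the block. Among the receptors, the fit of all genes with a count gave an sgRNA effect of 0.18 (SE 0.41) for *Adrb1* and 0.50 (SE 0.72) for *Adrb3*, both with an adjusted p of 1.00 in edgeR.

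Other genes of the pathway were taken from 5 lists. For the averaged isoproterenol effect, 2330 of all 13150 genes had an unadjusted p under 0.05 in edgeR and 973 passed in DESeq2. Of the 46 tested genes of these lists, 0 passed in edgeR without the block, while 11 had an unadjusted p under 0.05 and 3 passed in DESeq2. The genes named next passed with the block, a choice made after that count was seen. They are to be read against the 21.3% of all genes that did so, 10.9% higher and 10.4% lower. Whether any list exceeded that share was not tested.

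Among the other α-adrenoceptors, 1 of 4 was tested, and it fell with the block. *Adra1d*, a Gq-coupled α1 receptor, had 5.07 ± 1.19 CPM in empty ctrl and 3.09 ± 1.92 in empty iso, and 5.29 ± 1.99 in sgRNA ctrl and 3.09 ± 0.787 in sgRNA iso (SD, n = 4). It was lower in 7 of 8 pairs, with an effect of −0.78 in log2 units under the block (SE 0.17; adjusted p = 0.00477, edgeR) or by −0.75 (SE 0.25; adjusted p = 0.109) without it. *Adra1b* and *Adra2b* had at most 5 counts in any library and *Adra2c* had 0 in all 16.

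Of the other Gα subunits, 7 of 12 were tested, and with the block 2 rose and 1 fell. *Gna13* rose by 0.23 (SE 0.04; adjusted p = 0.00123, edgeR). Of the inhibitory subunits, *Gnai3* changed by 0.20 (adjusted p = 0.0357) and *Gnai2* by −0.18 (adjusted p = 0.0112) with the block, and the difference between them was not tested. Without the block their adjusted p values were 0.454 and 0.239. Of the Gβ and Gγ subunits, 11 of 15 were tested and 1 fell, *Gng2*, by −0.71 (SE 0.13; adjusted p = 0.00102) and in 8 of 8 pairs. Of the other receptor kinases and arrestins, 3 of 6 were tested and 0 passed in either fit, with 1 at an unadjusted p under 0.05.

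Of the genes of receptor traffic and the α-arrestins, 23 of 24 were tested, and with the block 4 rose and 2 fell. Of all genes tested, 10.9% rose and 10.4% fell in that fit. The rises were those of *Cltc*, the clathrin heavy chain (0.23), *Snx27*, a sorting nexin of receptor recycling (0.20), *Mdm2*, a ubiquitin ligase of β-arrestin (0.19), and *Usp33*, a deubiquitinase (0.16). The falls were those of *Slc9a3r1*, a PDZ scaffold (−0.29), and *Dnm2*, dynamin 2 (−0.20). Blocked adjusted p values of these 6 ran from 0.0110 for *Mdm2* to 0.0484 for *Snx27*. For the sgRNA effect 2 of the 23 rose with the block, *Arrdc3* by 0.45 (adjusted p = 0.0348) and *Txnip* by 0.42 (adjusted p = 0.00639), against 0.586% of all genes, and 0 passed in the other 4 pathway lists. In the same fit 2 cell type markers passed for the sgRNA, *Cidea*, which was higher by 1.05 (adjusted p = 0.0348, edgeR) in 8 of 8 pairs, and *Ly6a*, at −0.74 (adjusted p = 0.00491, edgeR) and lower in 8 of 8 pairs. Their part in the *Arrdc3* and *Txnip* values was not tested.

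The adipocyte identity of the cultures was checked on 8 markers, whose summed level was 16273 to 26876 CPM in empty ctrl, 12393 to 21925 in empty iso, 19884 to 25333 in sgRNA ctrl and 13326 to 23559 in sgRNA iso. With isoproterenol 3 of the 8 fell and 0 rose without the block, with changes of −1.06 for *Adipoq*, −0.69 for *Lipe* and −0.54 for *Cidec*. With the block 5 fell and 1 rose, *Cidea*, a lipid droplet protein, by 1.20 (adjusted p = 7.46e-04, edgeR) and in 8 of 8 pairs. For these and the marker counts below, the shares of all genes were 2.06% higher and 2.43% lower without the block. With the block they were 10.9% and 10.4%. *Pparg* and *Lpl* were at −0.058 and −0.010 without the block and did not pass in either fit. The summed level of 5 macrophage and leukocyte markers was 6.44 to 14.1 CPM in ctrl and 13.6 to 22.5 CPM in iso libraries, nearly all of it *Cd68*, a lysosomal protein, which rose by 0.91 (adjusted p = 0.00518, edgeR). The defining *Ptprc* and *Adgre1* had at most 2 counts in any library. The summed level of 4 smooth muscle markers was 3.80 to 34.1 CPM in ctrl and 3.28 to 19.7 CPM in iso libraries. All 3 that were tested fell with the block, *Tagln* by −0.81 (adjusted p = 0.0173, edgeR), *Myh11* by −0.75 (adjusted p = 0.0417) and *Acta2* by −0.50 (adjusted p = 0.0137), and 0 passed without it. The summed level of 8 preadipocyte and fibroblast markers was 28.3 to 119 CPM in ctrl and 37.4 to 145 CPM in iso libraries. Of the 4 tested, 1 rose with the block, *Ly6a*, by 1.09 (adjusted p = 4.92e-06, edgeR) and in 8 of 8 pairs, and 0 passed without it. In bulk RNA fewer cells of a type and less RNA per cell cannot be told apart, and the part of these markers in the *Arrb1*, *Arrb2* and *Adra1d* values was not tested.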

How the data were processed

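Per the labels and the study's methods, polyadenylated RNA was sequenced in paired ends, and the authors used cutadapt for trimming and Salmon for quantification on the GENCODE M22 transcriptome (GRCm38), alone or combined with RNAcentral 5. The deposited values are estimated counts of each gene, whole numbers without normalization. Tool versions, which of these transcriptomes gave the table and the use of strand are not given in the sources used here. All 16 columns matched a sample title. A further gene of the pathway lists is not reported here. Gene spans and exon lengths came from GENCODE M21, an earlier release of the same build, so lengths can differ from those used by the authors.

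In R 4.3.3 with edgeR 4.0.16, genes were kept by filterByExpr (minimum count 10, minimum total 15), scaled by TMM and fitted with 4 group means. Contrasts were tested two-sided with glmQLFTest and Benjamini-Hochberg adjustment over 13150 genes. The rule for the members names genes and uses no measured value, but the members, lists and tests were chosen with earlier results of these data known. Named genes were all 9 members and up to 6 passing genes per pathway list. Deviations of log2 CPM (prior count 2) from the group means correlated by 0.22 to 0.61 in all 24 library pairs with the same replicate number, against −0.51 to 0.52 (median −0.21) in 72 other pairs between groups, so the numbers in the titles were taken to pair the libraries. The labels do not say which cultures were separate, so p-values measure the spread between these samples. The total counts limit the precision of low genes, and the limit of 3 counts covers counting error only. Alternatives were the replicate block, DESeq2 1.42.0, other size factors, no filter, a fold bound, the ribosomal RNA gene, and leaving out libraries or replicates.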

Additional observations from a re-analysis of the deposited data

Results flagged for a closer look

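In 28 groups of 4 libraries, the distance of the highest or lowest library from its neighbour was compared with the group's range, and 3 stood apart by Dixon's 95% criterion, which chance meets in about 1 of 20 groups. *Arrb1* in replicate 6 of sgRNA iso was at 71.3 CPM, with the other libraries of that group at 41.6 to 45.7. The ratio of *Arrb1* to *Arrb2* counts was 5.90 in replicate 6 of empty ctrl, against 3.99 to 4.29 in the others. The same ratio was 4.38 in replicate 5 of sgRNA ctrl, against 5.85 to 6.11 in the others. No cause was tested.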

How the results depend on the processing

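Of 498 values of the tested members under alternatives, 443 kept their direction and side of the threshold, 6 passed that had not and 49 changed sign. With the replicate block 1 member (*Arrb1*) passed for isoproterenol, and again with the ribosomal RNA share added, where *Arrb1* also passed in empty cells (1 member). Leaving out libraries or replicates, with or without the block, gave 0 to 1 members and 0.22 to 0.46 for *Arrb1*, whose adjusted p ran from 0.00308 to 0.517 over all alternatives. The block changed no other member's call. Counts of all genes passing for isoproterenol, 590 as reported, were 2799 with the block, 973 in DESeq2, 349 with an absolute log2 fold change over 0.5, 2523 with the block and the ribosomal RNA share, and 137 to 2120 with a library or replicate left out, lowest without replicate 3. For the sgRNA the count, 0 as reported, was 77 with the block, 13 in DESeq2, 10 without the filter, 4 with the ribosomal RNA share, 35 with the block and the fold bound, 17 with the block and the share, and 0 to 35 with a library or replicate left out. For the interaction it was 1 with the block and the share, and 0 to 1 in the leave-outs.

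Sign changes were of values near 0 in the main fit, from −0.082 for the *Arrb1* interaction to 0.0036 for *Gnas* with isoproterenol. Under alternatives the *Arrb1* interaction reached 0.23. Without the filter *Gnas* was at −0.026 for isoproterenol and *Grk5* at 0.0022 for the sgRNA. With the ribosomal RNA share *Grk2* was at 0.011 for the sgRNA, and *Arrb2* in sgRNA cells at 0.018 for isoproterenol, or 0.029 with the block. With a library or replicate left out, isoproterenol values ran from −0.18 to 0.013 for *Grk5*, −0.047 to 0.067 for *Gnas* and −0.070 to 0.027 for *Arrb2* in sgRNA cells. sgRNA values ran from −0.12 to 0.039 for *Grk2*, −0.11 to 0.074 for *Grk5*, −0.15 to 0.12 for *Arrb1* and −0.089 to 0.0075 for *Gnas*, and the *Arrb1* interaction from −0.29 to 0.23. The change of the *Adrb3* to *Adrb1* ratio stayed between −1.75 and −1.15, with an exact p of up to 0.125, and was −0.92 (exact p = 0.0156) with 2 added to each count. The cause of these shifts was not tested. Counts of 11 or fewer limit all statements on the 4 receptors.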

Other observations

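The tested genes whose log2 CPM followed *Adrb1* most closely over the 16 libraries, by Pearson's r, were *Ttc14* (0.861), *Rbm26* (0.845), *Lats1* (0.844) and *Htatip2* (0.840), and an unnamed gene (ENSMUSG00000109005, 0.841). For *Adrb3* they were *Faf2* (0.758), *Nrp1* (0.754), *Cltb* (0.750), *Ulk4* (0.747) and *Ppic* (0.736). These are the highest of 13150 values each, for receptors with at most 9 and 11 counts per library, and all points share the library scaling and the replicate structure, so they stand as a description.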
